A study of Mus musculus with 6 samples.

Results

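The loci of 10 imprinted mouse genes were examined in the accessible chromatin of mouse embryonic stem cells (mESCs): the growth factor gene Igf2, its clearance receptor Igf2r, the noncoding RNA genes H19, Kcnq1ot1 and Meg3, the zinc finger genes Peg3 and Plagl1, the retrotransposon-derived Peg10, Mest, and the splicing protein gene Snrpn. The rule that names these genes uses no value of the peak list, although the genes were chosen with earlier results of these data known. They are 10 of the 38662 RefSeq genes with a transcription start site (TSS) on the chromosomes of GRCm38, and their windows, the gene span plus 20 kb on each side, hold 19 of the 41014 peaks of the list. ATAC-seq, in which the transposase Tn5 cuts and tags open DNA, was performed in 6 samples, of which the peak list covers the untreated condition with 2 replicates. These were V6.5 cells, an mESC line from a cross of C57BL/6 and 129 mice, labelled untreated. The labels have them grown with irradiated mouse embryonic fibroblasts, serum and LIF, while the study's methods name serum and LIF with the inhibitors CHIR99021 and PD0325901 and name no feeder cells. Which culture the ATAC-seq samples had cannot be told apart from these sources. The other 4 samples were ZBTB21-degron mESCs at 0 h and 6 h of auxin, with 2 replicates each, and were not analysed here. A treatment note shared by all samples describes 1 μg/ml doxycycline for 24 h, given to degron cells. The list has no values per untreated replicate, so no spread between replicates, no depth and no test between samples could be had. Every value below describes this list. A gene without a listed peak is one for which no peak passed the authors' threshold, which is not a measurement of closed chromatin.

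Imprinted genes are transcribed mainly from the allele inherited from one parent. DNA methylation laid down in the egg or the sperm at an imprinting control region is kept on one parental copy through early development by ZFP57 and ZFP445, which bind methylated DNA and recruit TRIM28 and SETDB1, and by DNMT1 with UHRF1. On the other copy the same region is unmethylated and can act as a promoter, as at Peg3, Mest, Snrpn, Plagl1, Peg10 and Kcnq1ot1, or as an insulator bound by CTCF, as upstream of H19. Where their expression is imprinted, Igf2, Peg3, Peg10, Mest, Kcnq1ot1, Snrpn and Plagl1 are expressed mainly from the paternal copy. H19, Igf2r and Meg3 are then expressed mainly from the maternal copy. Which copy was expressed in the cells used here was not measured. The peak list carries no allele information, so a peak on 1 copy and a peak on both cannot be told apart.

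The peaks that the results turn on are shown first by a part of their sequence. The peak counts below are for whole peaks or for the 300 bp around their middle, so a printed stretch can hold fewer. The sequences were read from the RefSeq assembly of GRCm38 on the strand of the gene, 5′ to 3′, and cover only bases outside annotated exons, for at most 300 bases each. Capitals mark TGCCGC, the core of the ZFP57 motif, GGNGGCAG, a part of the CTCF consensus, and GCCATNTT, the YY1 core, on either strand. TGCCGC read on the other strand is GCGGCA, which is also contained in GGCGGCAG, so these 2 patterns can overlap. YY1 is a zinc finger factor that binds promoters. A match is a description of the letters and was not tested for binding.
Peg3 intronic peak, chr7:6728229-6728528, strand -: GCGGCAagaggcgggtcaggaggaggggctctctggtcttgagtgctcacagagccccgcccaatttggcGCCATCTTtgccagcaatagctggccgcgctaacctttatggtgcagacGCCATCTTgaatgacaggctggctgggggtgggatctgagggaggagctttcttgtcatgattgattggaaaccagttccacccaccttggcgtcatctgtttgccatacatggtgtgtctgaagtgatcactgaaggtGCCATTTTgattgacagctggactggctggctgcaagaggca
Peg3 and Usp29 start-site peak, chr7:6730463-6730558, strand -: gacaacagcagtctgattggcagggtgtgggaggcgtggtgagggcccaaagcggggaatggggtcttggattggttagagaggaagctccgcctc
Mest intronic peak, chr6:30736975-30737274, strand +: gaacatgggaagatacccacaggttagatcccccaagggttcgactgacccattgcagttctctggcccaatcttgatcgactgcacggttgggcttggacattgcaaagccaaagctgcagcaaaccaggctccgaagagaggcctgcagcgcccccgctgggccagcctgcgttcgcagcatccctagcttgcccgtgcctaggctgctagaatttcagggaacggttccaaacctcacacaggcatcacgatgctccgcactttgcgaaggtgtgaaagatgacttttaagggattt
Snrpn start-site peak, chr7:60004858-60005035, strand -: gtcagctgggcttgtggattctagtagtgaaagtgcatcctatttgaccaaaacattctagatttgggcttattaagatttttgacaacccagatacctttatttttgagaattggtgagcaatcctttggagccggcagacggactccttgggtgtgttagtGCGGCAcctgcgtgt
Meg3 upstream peak, chr12:109527449-109527748, strand +: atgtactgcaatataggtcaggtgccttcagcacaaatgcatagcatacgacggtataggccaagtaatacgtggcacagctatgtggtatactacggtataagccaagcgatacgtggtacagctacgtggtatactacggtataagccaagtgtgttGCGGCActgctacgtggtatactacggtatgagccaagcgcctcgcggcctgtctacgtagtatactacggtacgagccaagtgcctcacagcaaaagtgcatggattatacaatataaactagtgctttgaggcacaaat

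Of the 10 genes, 3 had a listed peak within 1 kb of a TSS, namely Peg3, Mest and Snrpn, with 4 peaks between them. Across all RefSeq genes 22.9% had such a promoter peak, and among the 21774 protein-coding genes 29.9%. In the wider windows 7 of the 10 genes had at least 1 peak, against 67.5% of all genes. Both counts lay near their backgrounds. The windows covered 1.18 Mb and held 16.1 peaks per Mb, beside 15.0 per Mb over the chromosomes. The density depended on 1 gene, since the Snrpn window of 507.7 kb held only 2 peaks. Without it the other 9 windows held 17 peaks in 0.676 Mb, or 25.2 per Mb. Window by window, the median of the 10 genes was 2 peaks and 26.3 peaks per Mb, beside 1 peak and 22.1 per Mb for the median RefSeq gene. With the parental copy taken from textbook knowledge, a promoter peak was listed at 3 of the 7 paternally expressed genes and at 0 of the 3 maternally expressed genes. This grouping was made after the values were seen, and the groups are too small to compare shares. They also differ in kind: H19 and Meg3 are noncoding, while among the paternally expressed genes only Kcnq1ot1 is.

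**Figure D1:**
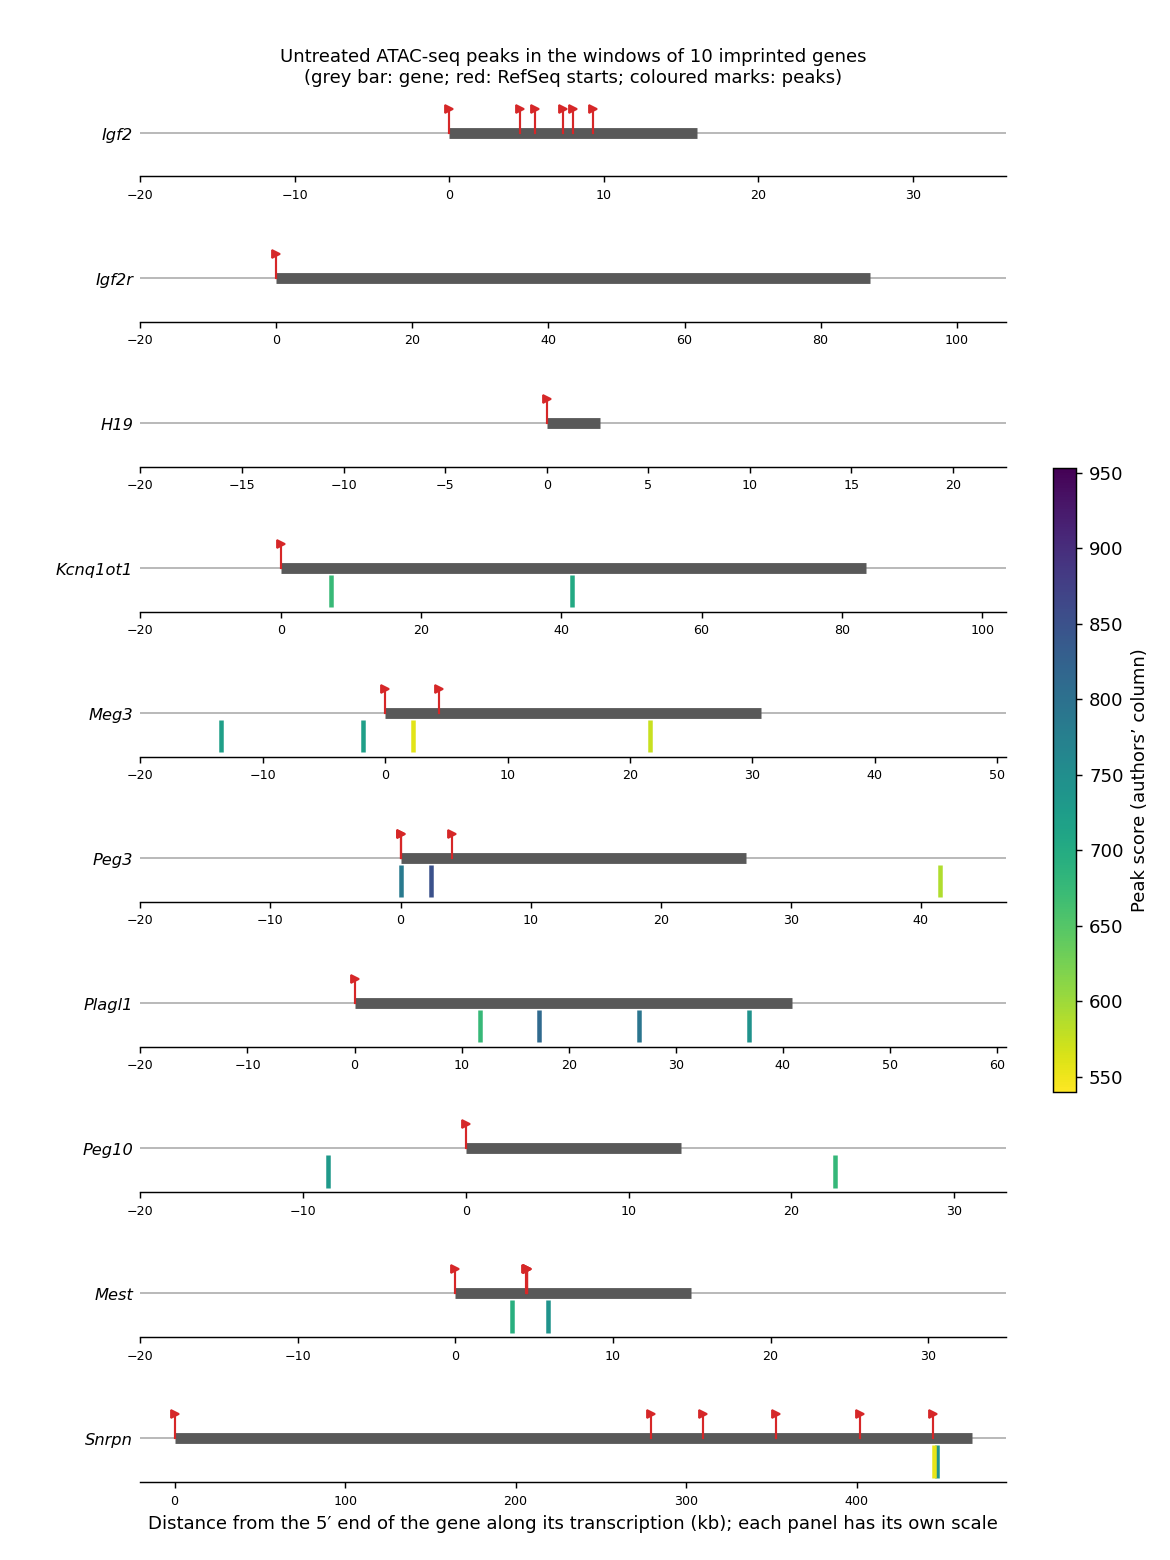
Position of the 19 peaks in the windows of the 10 genes, as the distance in kb from the 5′ end of each gene along its transcription, with each panel on its own scale. Grey bars are genes, red flags are RefSeq starts, and marks below the line are peaks coloured by score. The panels of Igf2, Igf2r and H19 hold 0 peaks, the 2 peaks of Snrpn lie by its most downstream start, and the 4 peaks of Plagl1 lie inside the gene, from 11489 bp downstream of its start onward.

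**Figure D2:**
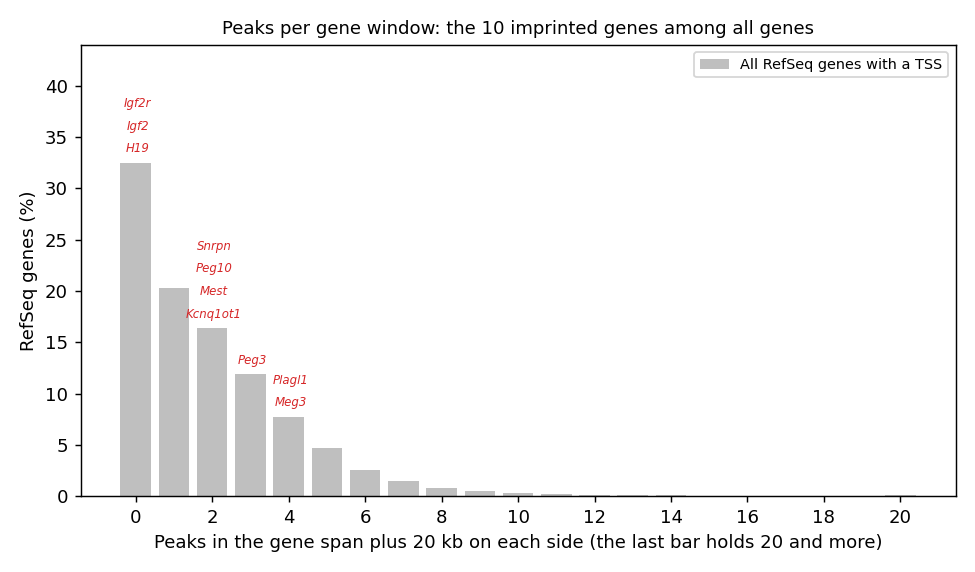
Share of all 38662 RefSeq genes (vertical axis, percent) by the number of peaks in the gene span plus 20 kb on each side (horizontal axis), with the 10 imprinted genes written above the bar of their count. The genes stand at 0, 2, 3 and 4 peaks, and 32.5% of all genes stand at 0.

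Igf2, Igf2r and H19 had 0 peaks in their windows. Igf2, which encodes a fetal growth factor, spans chr7:142650768-142666816 on the minus strand with 6 annotated starts, and H19, a noncoding RNA expressed from the other parental copy, spans chr7:142575530-142578146 on the same strand. The nearest peak to both was the same one, chr7:142537686-142538363 with 678 bp and a score of 754, which lay 37.2 kb from H19 and 112 kb from Igf2. It was outside both windows and was counted for neither. Both genes, together with the insulin gene Ins2, stood in one stretch of 261 kb without a listed peak, chr7:142538364-142799253, which was longer than 95.8% of the gaps between neighbouring peaks (median gap, 19.9 kb). From a TSS to the nearest peak the distance was 39.8 kb for H19 and 119 kb for Igf2, and 73.3% and 87.0% of RefSeq genes had a nearer peak. The median RefSeq gene had a peak 11.3 kb from a TSS.

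Igf2r, whose product carries IGF2 to the lysosome, spans chr17:12682406-12769706 on the minus strand. Its nearest peak, chr17:12879821-12880477 with 657 bp and a score of 657, was 110 kb away. Of RefSeq genes, 86.3% had a peak nearer to a TSS. The peak-free stretch around Igf2r was 463 kb long, longer than 97.9% of the gaps. It held 6 protein-coding genes, among them the imprinted transporter genes Slc22a2 and Slc22a3. A long gap is more likely to hold a given gene, and both gaps were looked at because the windows had no peak. The shares of gaps are therefore not shares of genes. Airn, the noncoding RNA whose promoter lies in an intron of Igf2r, had its nearest peak 139 kb from its start.

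The control region of H19 lies upstream of its start and is known for its CTCF sites, so its letters are shown although no peak was listed there. Between 2 and 5 kb upstream of the H19 TSS, GGNGGCAG matched 5 times, all on the minus strand, between 2163 and 3888 bp from the TSS. Over the same 3000 bases upstream of 31603 curated RefSeq starts, 64.2% had at least 1 match and 1.72% had 5 or more. In 4 of the 5 matches the letters CCGC began 6 bases before the match. TGCCGC, which is not marked in these lines, stood within the 36 bases of 3 of them on one strand or the other, and in match 3 it occurred 2 times, once within the capitals. Capitals mark GGNGGCAG, with 14 bases on each side. The region was chosen after its matches were seen, and 0 peaks were listed in it.
H19 upstream match 1, chr7:142582020-142582055, strand -: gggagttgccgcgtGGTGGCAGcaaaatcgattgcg
H19 upstream match 2, chr7:142581895-142581930, strand -: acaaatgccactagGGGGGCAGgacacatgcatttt
H19 upstream match 3, chr7:142581776-142581811, strand -: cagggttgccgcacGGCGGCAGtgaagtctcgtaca
H19 upstream match 4, chr7:142580750-142580785, strand -: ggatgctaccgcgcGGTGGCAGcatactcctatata
H19 upstream match 5, chr7:142580295-142580330, strand -: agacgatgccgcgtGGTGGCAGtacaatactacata

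Peg3, which encodes a zinc finger protein, carried the widest and highest-scoring peak of the set. It spans chr7:6703892-6730462 on the minus strand and had 3 peaks in its window. The peak at chr7:6727244-6728975 was 1732 bp wide with a score of 851, and 99.7% of the peaks of the list were narrower and 95.0% scored lower. It overlapped no annotated exon and lay in an intron of Peg3, 1444 bp downstream of the curated start. It counted as a promoter peak only through a predicted transcript, whose start lay 761 bp downstream of the peak. A narrower peak at chr7:6730255-6730606, 352 bp with a score of 785, covered the starts of Peg3 and of Usp29, a ubiquitin protease gene transcribed the other way. The last peak, at chr7:6688736-6689236 with 501 bp and a score of 589, was 7196 bp from the start of Zim1, another imprinted zinc finger gene, and overlapped an exon of it.

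The wide Peg3 peak held 10 matches of GCCATNTT, of which 3 fall in the printed stretch. All 10 lay on the minus strand, the strand of Peg3 transcription, over 1587 bp. From the start of one match to the next the spacing ran from 30 to 422 bp. At least 1 match was present in 9.27% of all peaks over their whole length. Of the 41000 peaks on chromosomes 1 to 19, X and Y, this was the only peak with as many as 10 (1 peak). Width adds to such a count, and 99.7% of the peaks were narrower. In the 300 bp around the middle the same peak held 1 match.

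Snrpn, which encodes a protein of the spliceosome, spans chr7:59982495-60450177 on the minus strand, and its 6 starts are spread over that length. Its 2 peaks both stood at or near the most downstream start, which it shares with Snurf. The peak over that start, chr7:60004858-60005214, was 357 bp wide with a score of 556, which was above only 4.46% of the list. It held 17 CpG with a CpG observed to expected ratio of 0.729, higher than in 93.8% of the peaks. TGCCGC occurred 3 times in it, and 0.802% of all peaks held 3 or more matches. The pattern itself contains a CpG, so CpG density adds to such a count, and peaks of like CpG ratio were not compared. The printed 178 bases outside exons hold only 4 of the CpG and 1 of these matches. The peak in the intron, chr7:60002925-60003424, was 500 bp wide with a score of 743 and lay 1775 bp downstream of the same start. It held 1 match of GCCATNTT. No peak was listed between the start-site peak and the first start of the gene. The promoters at 60047978, 60140225 and 60450177 were 42764, 135011 and 444963 bp from the nearest peak. The low-scoring peak thus lay on the CpG-dense start and the higher-scoring one beside it.

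Mest, which encodes a protein with a hydrolase fold, spans chr6:30733506-30748466 on the plus strand and had 2 peaks, neither over a start. The first, chr6:30736826-30737424, was 599 bp wide with a score of 693 and lay 626 bp upstream of the nearest curated start, in an intron of the longer transcript. Its CpG ratio of 0.58 was higher than in 88.6% of the peaks. The second, chr6:30739217-30739591, was 375 bp wide with a score of 741 and began 1164 bp downstream of the last start. The TSS cluster between them, with 2 matches of TGCCGC in its promoter, held no listed peak itself.

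Peg10, a gene derived from a retrotransposon and needed for the placenta, spans chr6:4747306-4760517 on the plus strand. Neither of its 2 peaks lay in the gene. The first, chr6:4738475-4739172, was 698 bp wide with a score of 731 and stood in an intron of Sgce, the imprinted sarcoglycan gene that is transcribed away from Peg10, 8134 bp upstream of the Peg10 start. The second, chr6:4769761-4770264, was 504 bp wide with a score of 678, overlapped no gene, and consisted to 55.2% of bases that the assembly marks as repeats.

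Among the noncoding RNA genes, Kcnq1ot1, which silences neighbours on the paternal copy, spans chr7:143213111-143296547 on the minus strand. It had 2 peaks within its length, which are also inside Kcnq1. They were 412 bp with a score of 703, and 748 bp with a score of 674, and the nearer one began 6741 bp downstream of the start. Both were poor in CpG, with ratios of 0.0741 and 0.0201, higher than in 7.03% and 1.59% of the list. Kcnq1 and Cdkn1c, the cell cycle inhibitor of the same cluster, had no promoter peak either, and their nearest peaks were 14.9 kb and 5.15 kb from a start.

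Meg3, a noncoding RNA of the Dlk1 cluster, spans chr12:109540996-109571729 on the plus strand and had 4 peaks in its window, 2 upstream and 2 within. The farthest upstream, chr12:109527381-109527817, was 437 bp wide with a score of 721 and lay 13179 bp before the Meg3 start. Its CpG ratio of 0.983, with 24 CpG, was higher than in 99.6% of all peaks, while its GC content of 47.6% was higher than in only 13.3%. The region between Dlk1 and Meg3 is known for the control region of the cluster. The printed sequence shows a repeat: CTACGGTAT occurred 3 times in this peak at a spacing of 44 bp. It was present in 17 of the 41000 peaks, and this was the only peak with 3 copies (1 peak), a pattern chosen after the sequence was seen. The peak at chr12:109538960-109539362, 403 bp with a score of 722, lay 1634 bp before the start and 402 bp from a start of the noncoding Gm34081. The 2 peaks within Meg3 scored low, 558 and 575, at widths of 961 and 443 bp, and lay 819 bp from Mir1906-1 and 805 bp from Mir770. The upstream pair therefore scored higher than the pair within the gene. Dlk1, which encodes a Notch-like membrane protein, had no promoter peak and its nearest peak was 15.8 kb away.

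Plagl1, which encodes a zinc finger factor that restrains growth, spans chr10:13090832-13131694 on the plus strand and had 4 peaks, all inside the gene and none within 1 kb of its start. They lay 11489, 16888, 26332 and 36383 bp downstream of the start, with widths of 550, 683, 438 and 835 bp and scores of 676, 812, 792 and 744. The last one overlapped a Plagl1 exon and the other 3 overlapped none. The highest score and the lowest were next to each other, on the 2 peaks nearest the start. The last peak held 2 matches of TGCCGC.

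The 19 peaks lay within the ranges of the list. Their scores ran from 556 to 851 with a median of 721, and 11 of them were above the list median of 696. Their widths ran from 352 to 1732 bp with a median of 501, and 8 were wider than the list median of 547 bp. The median CpG ratio over the whole peak was 0.283, beside 0.248 for the list, and 3 of the 19 had a ratio over 0.6, as did 10.7% of the list. These 3 were the start-site peaks of Peg3 and Snrpn and the upstream peak of Meg3. Of the 19, 14 lay within the gene span, 8 overlapped an exon of some gene and 11 overlapped none. In the 300 bp around the middle of the peak, TGCCGC was found in 2 of the 19 peaks (8.03% of all peaks), GGNGGCAG in 2 (17.0% of all peaks) and GCCATNTT in 3 (5.04% of all peaks).

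**Figure D3:**
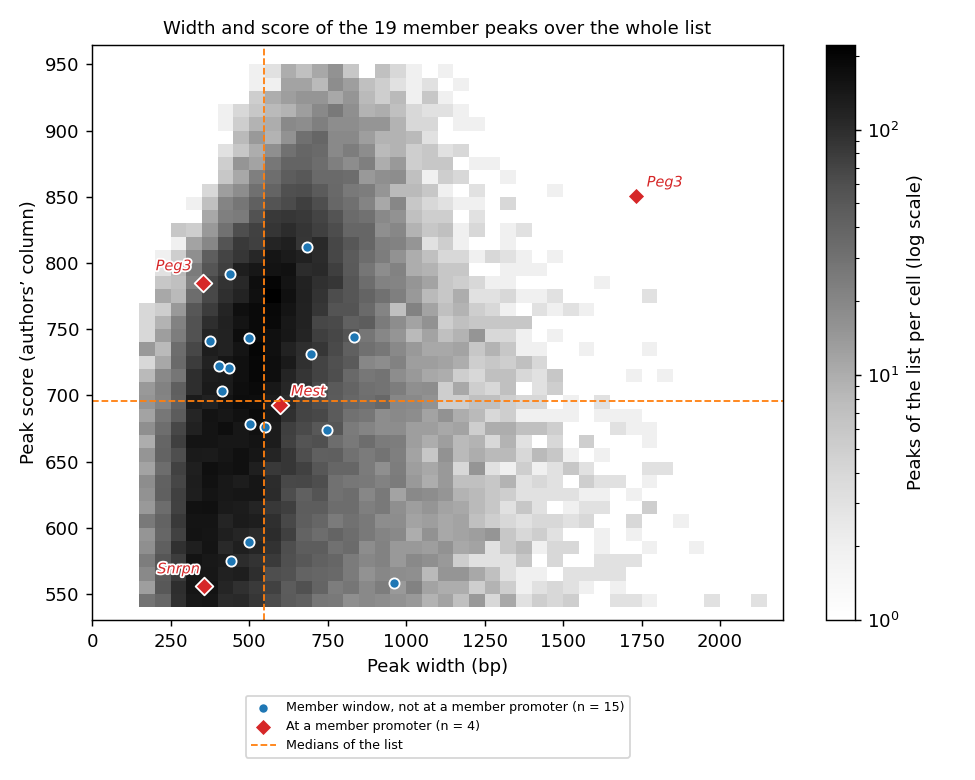
Width in bp (horizontal axis) and score (vertical axis) of the 19 peaks over the density of the whole list in grey, on a log scale of peaks per cell, with red diamonds for the 4 promoter peaks and blue points for the 15 others. Dashed lines are the list medians of 547 bp and 696. The wide Peg3 peak, 1732 bp with a score of 851, stands at the edge of the list, and the Snrpn start-site peak, with a score of 556, near its lower limit of 540.

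Promoters with and without a peak overlapped in base composition. RefSeq promoter sequences, 250 bases before to 50 after a start, were matched for 8 of the 10 genes with 17 promoters (H19 and Peg10 had none in the table). A promoter was called CpG-rich where GC exceeded 50% and the CpG ratio exceeded 0.6, which held for 33.3% of the 32851 promoters of the table and for 5 of the 17. Of these 5, at Igf2, Igf2r, Meg3, Mest and Plagl1, only that of Mest had a peak within 1 kb. Of the 12 other promoters, 3 had a peak, at Mest, Peg3 and Snrpn. The same Mest peak is counted in both classes. It serves the neighbouring starts 30738050 and 30738053, whose CpG ratios of 0.59 and 0.605 fall on either side of the limit. Across RefSeq genes 39.0% of those with a CpG-rich promoter had a promoter peak, and 17.4% of those in the table without one. These shares count genes with a peak at any TSS, while the member counts are per promoter, so the units differ. Igf2r and Plagl1 had the highest GC content, 70.7% each, with CpG ratios of 0.91 and 0.696. TGCCGC was found in 6 of the 17 promoters, beside 11.6% of all, with the 2 neighbouring Mest promoters overlapping. GGNGGCAG was found in 1 of the 17 (12.6% of all promoters) and GCCATNTT in 0 (6.05% of all). The bases before the starts of Kcnq1ot1 and Plagl1, which had no promoter peak, are shown for comparison with the peaks above.
Kcnq1ot1 promoter, chr7:143296548-143296797, strand -: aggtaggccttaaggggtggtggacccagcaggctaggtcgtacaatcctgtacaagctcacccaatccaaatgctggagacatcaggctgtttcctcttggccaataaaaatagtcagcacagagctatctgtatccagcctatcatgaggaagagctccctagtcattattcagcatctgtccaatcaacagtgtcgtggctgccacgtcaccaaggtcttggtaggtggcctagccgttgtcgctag
Plagl1 promoter, chr10:13090582-13090831, strand +: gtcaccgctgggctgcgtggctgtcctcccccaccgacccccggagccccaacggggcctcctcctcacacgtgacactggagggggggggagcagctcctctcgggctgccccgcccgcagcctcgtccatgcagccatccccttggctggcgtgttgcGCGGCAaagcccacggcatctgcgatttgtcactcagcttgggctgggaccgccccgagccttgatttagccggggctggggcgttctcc
The Plagl1 bases hold 19 CpG in 250 and 1 match of TGCCGC, and those of Kcnq1ot1 hold 5 CpG and 0 matches of the 3 patterns.

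**Figure D4:**
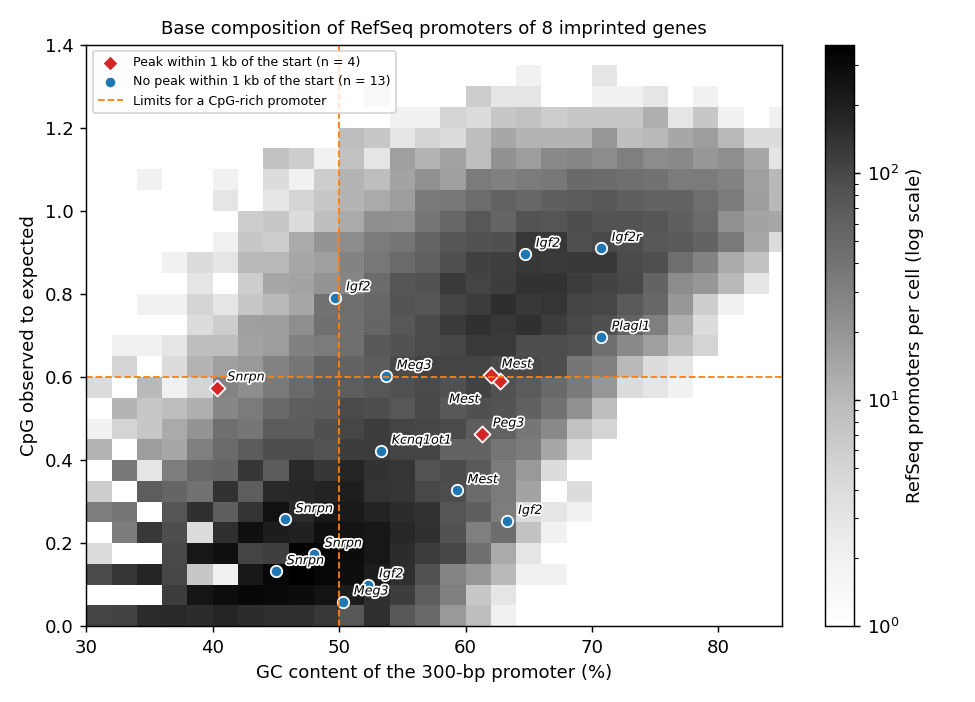
GC content in percent (horizontal axis) and CpG observed to expected ratio (vertical axis) of 17 RefSeq promoters of 8 imprinted genes, over all promoters of the table in grey on a log scale. Red diamonds are the 4 promoters with a peak within 1 kb of the start and blue points the 13 without one. The promoters of Igf2r and Plagl1, at 70.7% GC, lie among the CpG-rich ones and have no peak.

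ZBTB21 is the zinc finger protein whose loss the study followed, and its ChIP-seq peaks in mESCs number 1827. None lay in any of the 10 windows (0 windows), where 11.0% of all genes had at least 1. The nearest was 81.8 kb from Plagl1, next came 143 kb from Kcnq1ot1 and 287 kb from Meg3, and the farthest was 1926 kb from Snrpn. None of the 19 accessible peaks overlapped a ZBTB21 peak (0 peaks). From the Hi-C loops longer than 500 kb, 2 classes of 500 had been picked from the ends of a ranking by ZBTB21 signal and cohesin change. Responsive loops contain ZBTB21 peaks and sites of cohesin loss after ZBTB21 depletion, and less-responsive loops contain neither. Other loops are in neither class, so the shares of genes covered depend on this choice and on the length limit. Responsive loops covered 2 of the 10 genes, Meg3 and Plagl1, and 16.2% of all genes. Less-responsive loops covered 0 of the 10 and 6.45% of all genes. The Meg3 loop, chr12:109400001-110000000, was 600 kb long, contained Dlk1 and Rtl1, and held 14 accessible peaks and 1 ZBTB21 peak. The Plagl1 loop, chr10:13050001-14250000, was 1200 kb long with 9 protein-coding genes, and held 16 accessible peaks and 3 ZBTB21 peaks, the nearest 729 kb from Plagl1. Since responsive loops were defined by their ZBTB21 peaks, the presence of these is no finding. Neither gene lay in a loop anchor: Meg3 was 116 kb from the nearer one and Plagl1 15.8 kb.

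Of 50 other imprinted genes listed with the members, 49 had a RefSeq start and 18 of these (36.7%) had a promoter peak. The share was 22.9% over all RefSeq genes and 29.9% over protein-coding genes. Usp29 and Snurf have theirs in common with Peg3 and Snrpn, which leaves 16 genes and 15 distinct peaks. Any RefSeq start of a gene counted, and whether the peak lay at the start of an imprinted transcript was not examined. The highest scores were at Inpp5f, 937 for a peak of 1061 bp, at Gnas and its antisense transcript Nespas, which share a peak of 839 bp with a score of 927, and at Nap1l4, 925 for 1246 bp. Zrsr1, which lies in an intron of Commd1, shared with it a peak of 1475 bp with a score of 770. Magel2 in the Snrpn cluster and Slc22a18 in the Kcnq1ot1 cluster had peaks with scores of 829 and 828. Lower scores stood at Rasgrf1 (619), H13 (609), Peg13 (609), Ascl2 (597), Zdbf2 (588) and Trappc9 (542), while Impact had 768 and Sfmbt2 677. The partners without a promoter peak included Ndn and Ube3a near Snrpn, Rtl1 and Rian near Meg3, and Phlda2 near Kcnq1ot1. In all, 9 of the 49 had no peak in their window, beside 32.5% of all genes.

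Of 10 genes whose products set, keep or read imprints, 5 had a promoter peak. Beside this count, and the marker counts below, stand 22.9% of all RefSeq genes and 29.9% of protein-coding genes. Uhrf1, Setdb1 and Zfp445 had peaks with scores of 866, 893 and 852, Dnmt1 had 2 with the higher at 711, and Trim28 had 1 of 757 bp with a score of 568. Zfp57, Dppa3, Ctcf, Dnmt3a and Dnmt3l had none within 1 kb, and for 3 of them, Dppa3, Dnmt3a and Dnmt3l, the nearest peak was 1.45, 1.32 and 1.05 kb from a start. The count therefore depended on the distance chosen. As a check of the label, 3 of 6 mESC marker genes had a promoter peak, with 2 at Pou5f1, 1 at Nanog and 2 at Zfp42, while Sox2 and Esrrb had 4 and 15 peaks in their windows and Klf4 had 0. Of 6 fibroblast genes, Thy1 had a promoter peak, and Col1a1, Col1a2, Col3a1, Prrx1 and Twist2 had none. The windows of Thy1, Col1a1, Col1a2 and Col3a1 held 4, 3, 3 and 1 peaks, and those of Prrx1 and Twist2 held 0. The part of the feeder fibroblasts in the peaks of the imprinted genes was not tested.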

How the data were processed

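Per the labels, ATAC-seq libraries were made from viable cells with size selection for mono- and dinucleosomes. The authors deposited 1 list of peaks in mm10 coordinates with a score per peak (whole numbers from 540 to 953) and no strand. The submitters' processing notes name mm10, hg19, cutadapt 2.6, Bowtie2 2.3.5.1 and MACS2 2.1.1 without their roles. How the ATAC-seq peaks were called, how the score was made, and whether cut sites were shifted for Tn5 are not given in the sources used here. An IDR of 0.05, the threshold stated for ChIP-seq peaks, has a scaled score of 540. The list was matched to both untreated replicates by its name. Whether it was called on pooled reads or kept peaks found in each replicate is not given. It has no values per replicate, so depth and precision per sample are unknown. ZBTB21 peaks and loops (outer edge of one 25-kb anchor to that of the other) were read from the study's supplementary tables by their coordinates.

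TSSs of all RefSeq transcripts, curated and predicted, came from the GRCm38 annotation. A promoter peak overlapped the 1 kb on either side of a TSS by at least 1 bp, and a window peak the gene span plus 20 kb on each side. Motifs were searched on both strands. Sequences are from RefSeq, GRCm38. The percentages over all genes, promoters and peaks are backgrounds and not tests. The members and gene lists were chosen with earlier results of these data known. The 10 members were all named, together with list genes that had a promoter peak and genes whose start lay within 1 kb of a window peak. Other genes named without a promoter peak, the CpG limits, the H19 region and the Meg3 repeat were chosen after values were seen. Counting and motif search were tested on simulated data. Python 3.11.15, numpy 2.4.6, pandas 2.3.3, pysam 0.24.0 and matplotlib 3.10.9 were used. Alternatives were the TSS distance, curated transcripts only, the flank, a stricter score, the overlap rule, merging of peaks, the part of the loop, and the bases searched for motifs.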

Additional observations from a re-analysis of the deposited data

How the results depend on the processing

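Of 54 values recomputed with another setting, 40 stayed within 1.5 times the reported count, or within the 95% binomial order-statistic interval of the reported median, and 14 did not. That interval treats the 19 peaks as independent, although several share a locus. The recomputed medians also draw on largely the same peaks, so staying inside says little about how stable they are. With only peaks above the median score, which removes about every other peak by construction, the members with a promoter peak numbered 1, their promoter peaks 2, the window peaks 11 (9.3 per Mb), the other imprinted genes with a promoter peak 10, and the window peaks with TGCCGC 1. With a TSS within 500 bp there were 2 promoter peaks, and within 2.5 kb there were 8, at 4 members. Within 2.5 kb, 8 of the 10 genes that set, keep or read imprints had one. No share over all genes is given at these distances, so these counts have no background. With loop anchors only, 0 members lay in a responsive loop. Over whole peaks TGCCGC was in 4, GGNGGCAG in 4 and GCCATNTT in 5 of the 19 peaks. The whole-peak share over the list was 9.27% for GCCATNTT and is not given for the other patterns. The shares for 300 bp are no background for whole peaks. In the 200 bp around the middle GGNGGCAG was in 1. No paired analysis was possible because the list has no values per replicate, and for the same reason no replicate could be left out.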
